A study of Bos taurus with 14 samples.

Results

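The genes described here are the heat shock proteins and folding chaperones of the bovine conceptus on Day 15: every gene on the array whose symbol begins with HSP, DNAJA, DNAJB, DNAJC or PDIA, together with the CCT2 to CCT8 and TCP1 subunits of the cytosolic chaperonin. The symbols selected 88 of 24016 probe sets, and these stood for 57 of 9155 named genes. The choice was made by name and not by value. RefSeq (assembly ARS-UCD2.0) lists 89 bovine protein-coding symbols of these families, and 32 of them, among them CCT7, TCP1, PDIA6 and DNAJA2, had no probe set with their symbol alone.

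RNA was taken from 14 whole Holstein conceptuses, each on 1 Affymetrix bovine expression array. The embryos came from superovulated donors inseminated with the semen of 1 bull, were recovered on Day 6.5, graded by morphology, and transferred to recipient heifers in groups of 2 to 6 until the uterus was flushed on Day 15. From Grade 1 embryos there were 5 long conceptuses (1 male and 4 female), 5 short conceptuses (2 male and 3 female) and 1 male conceptus with no recorded length; from Grade 3 embryos there were 3 conceptuses (2 male and 1 female). Grade is thus that of the embryo before transfer, and length was compared within Grade 1 only. For short replicate 1, 1 label says long and another says short; it was placed with the short conceptuses, which gives the 5 and 5 of the study's design. Which of them shared a recipient or a dam is not stated, so each was treated as independent and p-values describe the spread among these 14. Replicate numbers below are names and carry no order.

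Chaperones bind unfolded or partly folded proteins and keep them from aggregating while they fold, cross membranes or join complexes. In the cytosol, HSP70 proteins cycle between ATP- and ADP-bound states; J proteins (the DNAJ families) bring clients and start ATP hydrolysis, nucleotide exchange factors end the cycle, and HSP90 and the TRiC chaperonin ring finish the folding of particular clients such as kinases, actin and tubulin. The endoplasmic reticulum (ER) has its own set (HSPA5 or BiP, HSP90B1 or GRP94, and the PDIA disulfide isomerases) for secreted and membrane proteins, and mitochondria have another (HSPA9, HSPD1 and HSPE1) for imported proteins. Some members are induced by heat and other stress through the transcription factor HSF1, and the ER members through the unfolded protein response. Around Day 15 the cattle trophoblast elongates from a sphere into a filament and secretes interferon tau and pregnancy-associated glycoproteins, both of which pass through the ER.

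The members were placed by the compartment where their protein is known to work. Cytosolic HSP70, HSP110, HSP90 and small heat shock proteins with their named binding proteins made up 16 genes, cytosolic and nuclear J proteins 11, TRiC subunits 6, ER luminal proteins 9, ER membrane J proteins whose J domain faces the cytosol 3, mitochondrial proteins 6, and J proteins of vesicle traffic or other sites 5. HSPG2 was also picked up by the name rule, but it encodes perlecan, an extracellular matrix proteoglycan, and is not a chaperone. Where a gene had several probe sets, as 19 of the 57 did, it was represented by the one with the highest mean over the 14 arrays. Of the 57 genes, 3 (HSPB3, HSPB6 and DNAJC12) had means under 3.905, the lower quartile of all probe sets, and their values say little.

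All values are log2 expression values from the RMA method, so a difference of 1 is a change of 2-fold. Array medians lay between 5.62 and 5.72. Of the trophectoderm markers on the array all 9 lay above the lower quartile of probe set means and 8 above the median. Their means ran from 4.87 for DLX3 to 14.53 for IFNT2, with KRT18 and PAG2 at 14.47 and 13.81. Of the hypoblast and epiblast markers 7 of 8 and 3 of 3 lay above the lower quartile, and 5 and 1 above the median. Of the endometrial, blood and erythroid markers 3 of 8, 6 of 8 and 4 of 6 lay above the lower quartile, and 2, 2 and 0 above the median. On the first principal component the long conceptuses scored between 5.89 and 31.58 and the short ones between -38.40 and -1.83, with short replicates 5 and 4 (-38.40 and -23.78) at the one end and long replicates 2 and 1 (31.58 and 26.70) at the other. The calls and the compartment medians between lengths are also given without each of these pairs.

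The comparison of long with short conceptuses asked how expression differs between embryos of the same grade that elongated to different extents. In long conceptuses 7 chaperone-family genes were lower and 3 were higher. The lower genes were HSPA4 and HSPBP1, which release nucleotide from HSP70, the J proteins DNAJC24, DNAJC7, DNAJC5 and DNAJC11, and the TRiC subunit CCT3, all by 1.20- to 1.28-fold. DNAJC6, the clathrin-uncoating J protein auxilin, was 2.26-fold higher, HSPB8 1.45-fold higher and HSPG2 1.30-fold higher. Thus 10 of 57 genes (17.5%) passed limma's test at an adjusted p under 0.05, against 9.50% of all named genes; by direction the members gave 5.26% higher and 12.3% lower, against 3.27% and 6.24%. Over all 88 probe sets 11 passed, against 6.57% of all probe sets.

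These calls were lost when a pair of conceptuses was left out and when the samples were blocked by title prefix as a fixed effect. Without short replicates 4 and 5, an alternative chosen after seeing the data, 0 of the 57 genes passed limma's test (16 had an unadjusted p under 0.05, 28.1% against 19.3% of all genes). Without long replicates 1 and 2, also chosen after seeing the data, 0 passed limma's test too (19 had an unadjusted p under 0.05, 33.3% against 20.6%). With the sample-title prefix as a fixed block 1 passed, which was DNAJA4 and none of the 10. Over all probe sets the calls fell too, from 1577 to 51 without the short pair, 49 without the long pair and 112 with the block. Such fits also have less power. The pairs lay at the ends of the first principal component, on which the lengths did not overlap, so leaving them out can itself narrow the difference. The part of either in the lost calls was not tested. Each of the 10 kept its direction in all 3 fits, with adjusted p-values between 0.0872 and 0.260 without the short pair and between 0.0711 and 0.234 without the long pair. The 10 were picked on these same arrays, so a kept direction is no separate support. DNAJC6 differed by 1.00 without the short pair and by 0.93 without the long pair, HSPBP1 by -0.31 and -0.35, HSPA4 by -0.28 and -0.33 and CCT3 by -0.20 and -0.21. The title prefixes, whose meaning the labels do not state, hold both lengths in only 2 of the 5 cases with Grade 1 conceptuses. These were long replicates 1 and 2 with short replicate 2, and long replicate 3 with short replicates 3 and 4. Within each of those the 10 genes had the sign of the pooled difference, which was drawn in part from these same conceptuses.

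**Figure D1:**
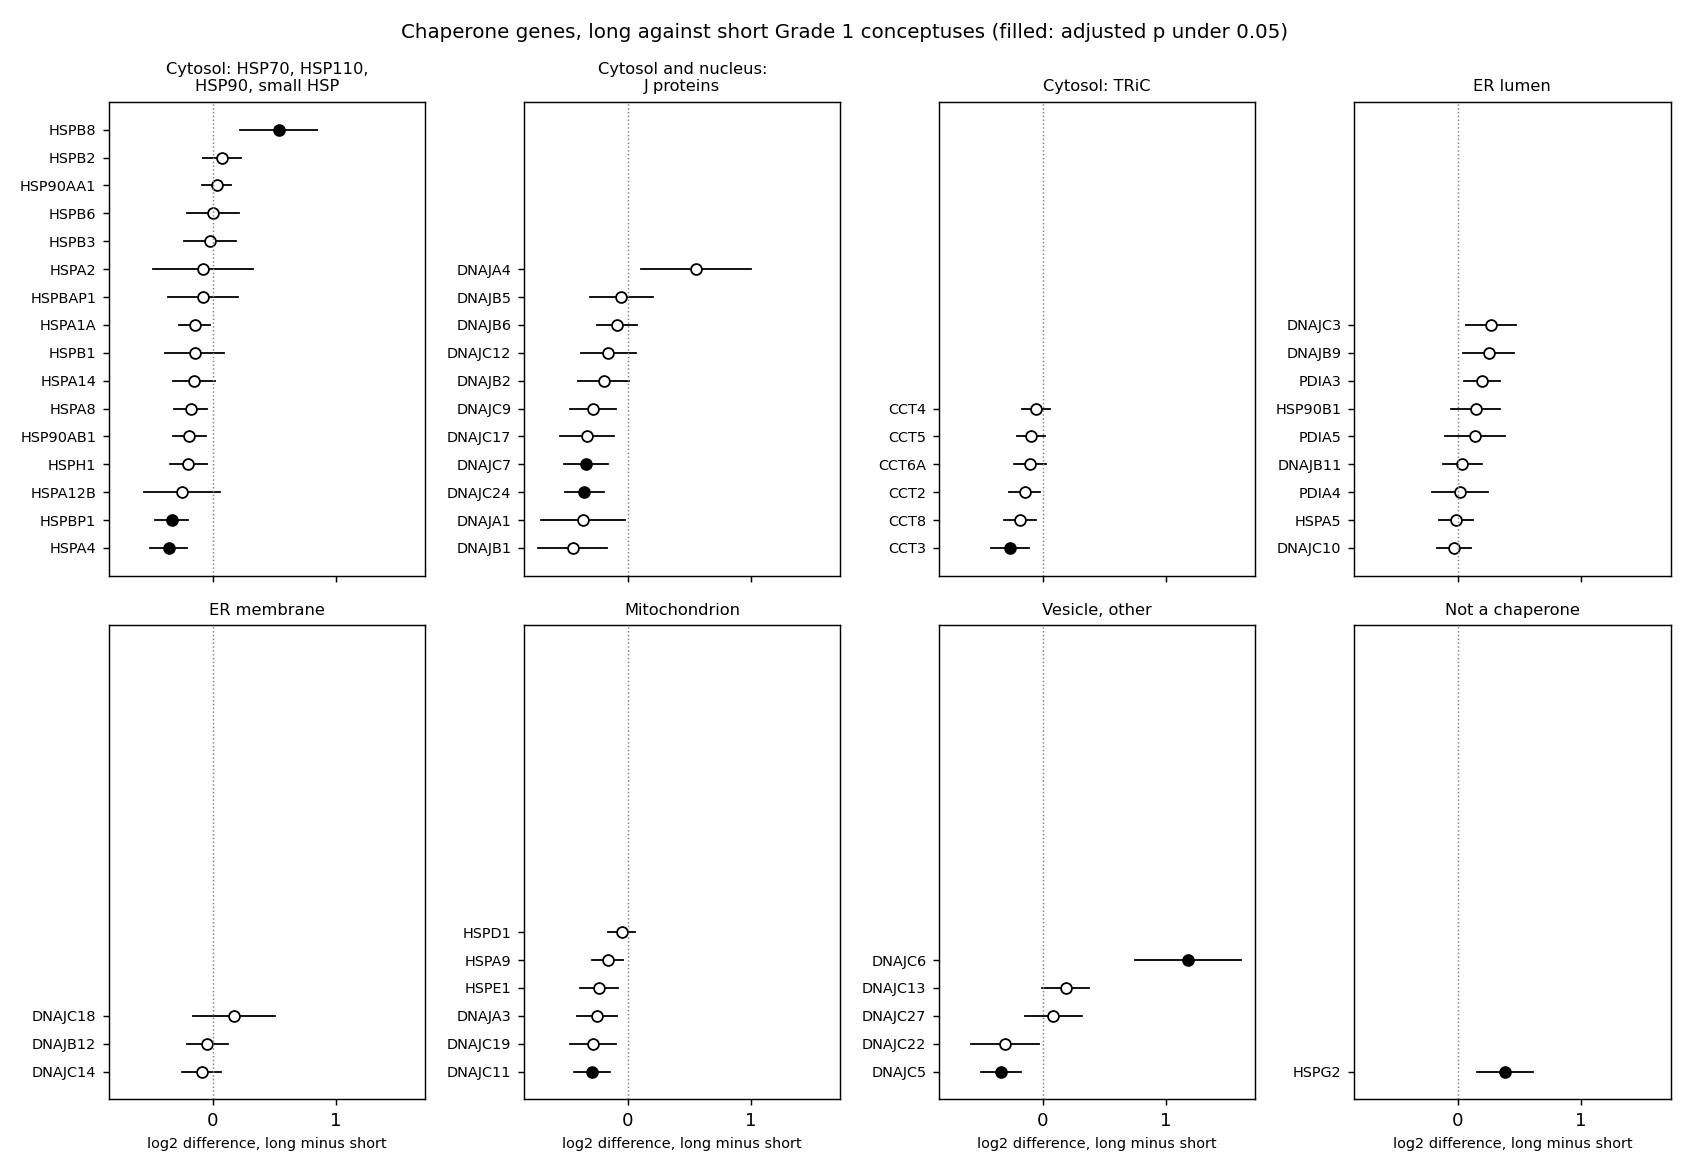
Difference in log2 expression between 5 long and 5 short Grade 1 conceptuses (horizontal axis, long minus short) for the 57 chaperone-family genes, grouped by compartment and each shown by its brightest probe set; bars are 95% confidence intervals from limma and filled points have an adjusted p under 0.05. The 6 TRiC and 6 mitochondrial genes all lie left of 0, and 7 of 9 ER luminal genes lie right of it.

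Of the cytosolic HSP70s and their nucleotide exchange factors, HSPA4 and HSPBP1 passed. HSPA4 is a member of the HSP110 family, which releases ADP from HSP70. It read 11.90, 11.81, 12.00, 11.94 and 11.83 in long replicates 1 to 5 and 12.18, 12.16, 12.20, 12.32 and 12.40 in short replicates 1 to 5. Every long conceptus lay below every short one, and the difference was -0.36 ± 0.07 (log2, SE; n = 5 and 5; adjusted p = 0.0176 in limma). Within the title prefixes that hold both lengths, HSPA4 differed by -0.30 and -0.26. A second, dimmer HSPA4 probe set differed by -0.10 and did not pass, so the size of the difference depends on the probe set.

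HSPBP1, another exchange factor that binds the ATPase domain of HSP70, read 8.20, 8.12, 8.18, 8.13 and 8.03 in the long conceptuses. In the short ones it read 8.49, 8.33, 8.51, 8.46 and 8.53. The groups again did not overlap, and the difference was -0.33 ± 0.06 (adjusted p = 0.0159). HSPA4 and HSPBP1 passed the test in all 10 fits that left out 1 conceptus, as did DNAJC6. When the conceptus with disagreeing labels was counted as long, neither HSPA4 nor HSPBP1 passed.

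The HSP70 and HSP90 genes themselves did not pass, although most of them read lower in long conceptuses. HSPA8, the constitutive cytosolic HSP70, read 13.88, 13.75, 13.94, 13.92 and 13.82 in long and 14.00, 14.10, 13.98, 14.12 and 14.02 in short conceptuses, a difference of -0.18 ± 0.06 (adjusted p = 0.108). HSP90AB1, the constitutive HSP90, differed by -0.19 ± 0.06 (adjusted p = 0.097), and HSP90AA1, the inducible one, by 0.03 with a 95% interval of -0.09 to 0.15. HSPH1, a further HSP110 of the cytosol, differed by -0.20 ± 0.07 (adjusted p = 0.113). Its 4 probe sets ranged from -0.41 to 0.003, and 0 of them passed. In the brightest probe sets the long and short values of HSPA8, HSP90AB1 and HSPH1 did not overlap, whereas those of HSP90AA1 did.

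Of the small heat shock proteins only HSPB8, which acts with BAG3 in the removal of misfolded proteins by autophagy, passed. It read 7.61, 8.03, 7.45, 7.53 and 7.55 in long and 7.47, 7.23, 7.05, 6.70 and 7.04 in short conceptuses. The groups touch: short replicate 1, the conceptus with disagreeing labels, lay above long replicate 3. The difference was 0.54 ± 0.14 (adjusted p = 0.0480), it was 0.58 and 0.57 within the prefixes, and the call was lost in 9 of the 10 fits without 1 conceptus. HSPB1 (HSP27), which binds unfolding proteins and actin, differed by -0.15 with an interval of -0.39 to 0.10. The remaining members of this list, HSPA2, HSPA12B, HSPA14, HSPBAP1, HSPB2, HSPB3 and HSPB6, differed by -0.25 to 0.08 and did not pass.

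Among the 11 cytosolic and nuclear J proteins, 10 had a difference below 0 and 2 passed, both lower in long conceptuses; the median difference was -0.28, beside -0.03 for all named genes. DNAJC24 (DPH4), a J protein of diphthamide synthesis on elongation factor 2, read 9.04, 8.96, 9.10, 9.26 and 9.16 in long and 9.36, 9.35, 9.56, 9.50 and 9.50 in short conceptuses. Its difference was -0.35 ± 0.07 (adjusted p = 0.0218), and a second probe set passed too, at -0.38 (adjusted p = 0.0145). The third DNAJC24 probe set differed by -0.18 and did not pass.

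DNAJC7 (TPR2), which binds HSP70 and HSP90 together, read 10.10, 10.13, 10.38, 10.34 and 10.24 in long conceptuses and 10.44, 10.54, 10.50, 10.67 and 10.74 in short ones. No long value reached the lowest short value, and the difference was -0.34 ± 0.08 (adjusted p = 0.0338); its second probe set differed by -0.26 (adjusted p = 0.0629). The stress-induced DNAJB1 (HSP40) had the largest difference below 0 of any member, -0.45 ± 0.13, but its spread was wider and it did not pass (adjusted p = 0.0599). DNAJC17 and DNAJC9, both nuclear, differed by -0.33 and -0.28 (adjusted p = 0.0721 and 0.0749). DNAJA1, DNAJB2, DNAJB5, DNAJB6 and DNAJC12 differed by -0.36 to -0.05 and did not pass.

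DNAJA4 was the only J protein of this group with a difference above 0. It read 6.60, 6.24, 6.00, 5.88 and 5.73 in long and 6.22, 5.36, 5.24, 5.25 and 5.62 in short conceptuses, a difference of 0.55 ± 0.20 (adjusted p = 0.136). Short replicate 1 lay among the long values, and DNAJA4 passed when that conceptus was counted as long.

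The cytosolic chaperonin TRiC folds actin and tubulin. All 6 of its measured subunits had a difference below 0, from -0.26 to -0.05 with a median of -0.13, and 1 passed. CCT3 read 11.55, 11.42, 11.64, 11.66 and 11.55 in long conceptuses and 11.87, 11.71, 11.72, 11.93 and 11.89 in short ones, a difference of -0.26 ± 0.07 (adjusted p = 0.0484). The long and short values of CCT2, CCT3, CCT5 and CCT8 did not overlap. CCT8 differed by -0.19 ± 0.06 (adjusted p = 0.0847) and CCT2 by -0.15 ± 0.06 (adjusted p = 0.150), while CCT4, CCT5 and CCT6A differed by -0.05, -0.10 and -0.11 and did not pass. The CCT3 call was lost in 9 of the 10 fits without 1 conceptus.

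The mitochondrial members also all read lower in long conceptuses, with a median of -0.24 over 6 genes, and 1 passed. DNAJC11, a J protein of the mitochondrial outer membrane that associates with the cristae-organising MICOS complex, read 8.52, 8.59, 8.65, 8.54 and 8.51 in long and 8.76, 8.72, 8.91, 8.95 and 8.92 in short conceptuses. Its groups did not overlap and the difference was -0.29 ± 0.07 (adjusted p = 0.0298). DNAJC19, of the inner-membrane import machinery, differed by -0.28 ± 0.09 (adjusted p = 0.0737), and DNAJA3, the matrix J protein Tid1, by -0.25 ± 0.07 (adjusted p = 0.0659).

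The folding chamber of the matrix is built from HSPD1 (HSP60) and its lid HSPE1 (HSP10). HSPE1 read 12.69, 12.73, 12.91, 12.86 and 12.87 in long and 12.98, 12.94, 13.01, 13.11 and 13.18 in short conceptuses, a difference of -0.24 ± 0.07 (adjusted p = 0.0711). HSPD1 read between 13.72 and 13.84 in all Grade 1 conceptuses and differed by -0.05, with an interval of -0.16 to 0.06. HSPA9 (mortalin), the matrix HSP70, differed by -0.16 ± 0.06 (adjusted p = 0.126). HSPE1 and HSPA9 did not overlap between lengths, whereas HSPD1 did.

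The ER lumen gave the opposite balance of signs, with 7 of 9 genes above 0, a median of 0.14 and 0 genes past limma's test. This balance rests on the brightest probe set of each gene: DNAJC10, HSPA5, PDIA4 and PDIA5, the 4 ER luminal genes with several probe sets, had differences of both signs, and over all 17 ER luminal probe sets 10 lay above 0 and 7 below, with a median of 0.04. All 8 mitochondrial and all 6 TRiC probe sets lay below 0. Unadjusted p-values under 0.05 were reached by 3 of the 9 genes, DNAJC3, DNAJB9 and PDIA3, beside 28.9% of all named genes. PDIA3 (ERp57), the disulfide isomerase that works with calnexin and calreticulin on glycoproteins, read 13.27, 13.31, 13.26, 13.33 and 13.31 in long and 13.20, 13.17, 13.19, 12.96 and 12.98 in short conceptuses. It was the only ER gene whose groups did not overlap, at 0.20 ± 0.07 (adjusted p = 0.105).

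DNAJC3 (P58IPK), a J protein that inhibits the ER stress kinase PERK and serves BiP, read 11.34, 11.36, 11.39, 11.40 and 11.49 in long conceptuses and 11.37, 11.15, 11.22, 11.07 and 10.81 in short ones. Its difference was 0.27 ± 0.09 (adjusted p = 0.111), and only short replicate 1 reached the long values. DNAJB9 (ERdj4), which returns the stress sensor IRE1 to its resting state through BiP, differed by 0.25 ± 0.10 (adjusted p = 0.147).

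The main ER folding proteins did not pass either. HSPA5 (BiP) read 13.49, 13.51, 13.42, 13.45 and 13.44 in long and 13.58, 13.60, 13.36, 13.45 and 13.40 in short conceptuses, a difference of -0.01 with a 95% interval of -0.16 to 0.13. HSP90B1 (GRP94) differed by 0.15 ± 0.09 and PDIA4 (ERp72) by 0.02 ± 0.10. Their 95% intervals ran from -0.05 to 0.34 and from -0.21 to 0.25. A difference as large as that of PDIA3 lies inside both but outside that of the brightest HSPA5 probe set. The second HSPA5 probe set differed by 0.04, and its interval of -0.16 to 0.23 holds the PDIA3 difference. The disulfide isomerase PDIA5 differed by 0.14, the BiP partner DNAJB11 (ERdj3) by 0.04 and the reductase DNAJC10 (ERdj5) by -0.03. The 3 J proteins of the ER membrane, DNAJB12, DNAJC14 and DNAJC18, differed by -0.04, -0.09 and 0.17 in their brightest probe sets. Of these probe sets 0 passed limma's test or had an unadjusted p under 0.05. The dimmer DNAJC14 probe set differed by -0.26 and did not pass. Over all 6 ER membrane probe sets 5 lay below 0, with a median of -0.07.

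Members outside these compartments moved in both directions. DNAJC6 (auxilin) recruits HSC70 to strip clathrin from newly formed vesicles. It read 5.85, 6.16, 5.08, 5.33 and 5.75 in long and 4.78, 4.44, 4.69, 4.27 and 4.10 in short conceptuses. The groups did not overlap, and the difference of 1.18 ± 0.20 (adjusted p = 0.0114) was the largest of any member. It was 1.57 within 1 prefix and 0.60 within the other, and it lay between 0.93 and 1.32 in every fit run, although the adjusted p rose to 0.0923 with the prefix as a fixed block.

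DNAJC5 (cysteine string protein), a palmitoylated J protein of secretory vesicles, read 8.02, 7.78, 7.75, 7.96 and 7.88 in long and 8.22, 8.09, 8.15, 8.26 and 8.36 in short conceptuses, a difference of -0.34 ± 0.07 (adjusted p = 0.0273). Its second, dimmer probe set differed by -0.06. The endosomal DNAJC13 and the small GTPase DNAJC27 differed by 0.19 and 0.09 and DNAJC22 by -0.31, and none of these 3 passed. HSPG2 (perlecan) read 6.87, 7.11, 6.69, 6.69 and 6.85 in long and 6.43, 6.40, 6.71, 6.50 and 6.24 in short conceptuses, a difference of 0.38 ± 0.10 (adjusted p = 0.0485). Short replicate 3 lay within the long range of HSPG2, and the call was lost with sex as a covariate (adjusted p = 0.0529) and in 9 of the 10 fits without 1 conceptus.

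**Figure D2:**
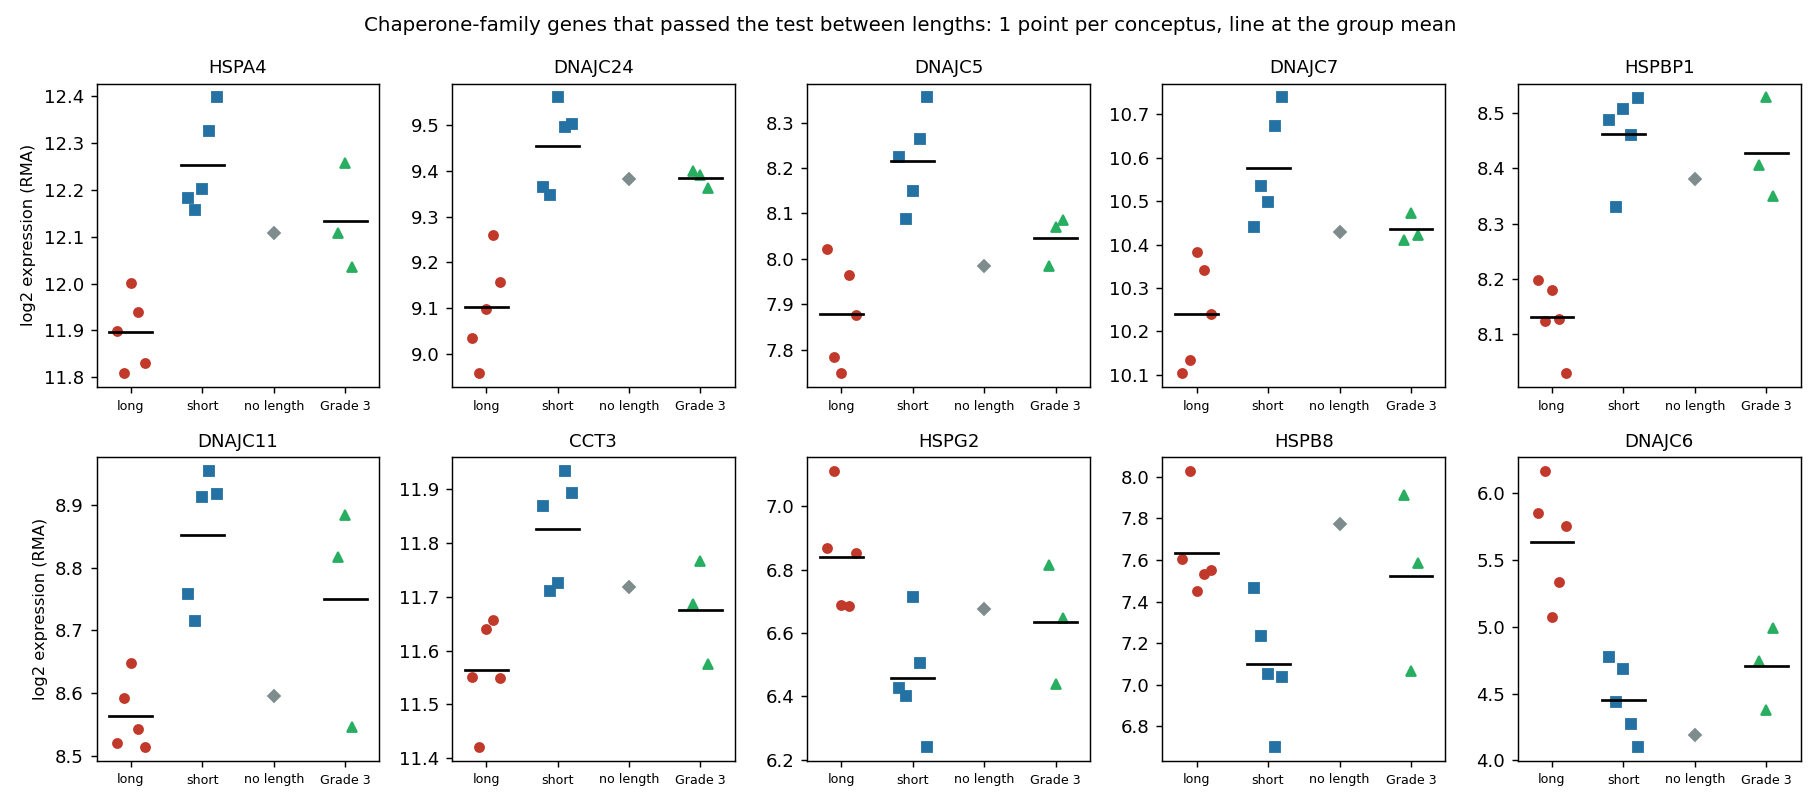
Log2 expression of the 10 genes that passed the test between lengths, 1 point per conceptus, with a line at the mean of each group; the vertical axes differ between panels. Long conceptuses lie below all short ones for HSPA4, DNAJC24, DNAJC5, DNAJC7, HSPBP1, DNAJC11 and CCT3 and above them for DNAJC6, and the single points overlap for HSPG2 and HSPB8.

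Counted over all members, long and short values did not overlap for 18 of 57 genes (31.6%, against 12.6% of all named genes), of which 2 were higher in long conceptuses (3.51%, against 3.58% of all named genes) and 16 lower (28.1%, against 9.03%). Of the 33 cytosolic and nuclear members 28 had a difference below 0 and their median was -0.15; without short replicates 4 and 5 the median over the 33 was again -0.15, those of TRiC and mitochondria were -0.11 and -0.19, and that of the ER lumen was 0.08 with 6 of 9 genes above 0. Without long replicates 1 and 2 these medians were -0.15, -0.11, -0.18 and 0.12 in the same order. Over all 9155 named genes 58.8% lay below 0. The spread of a member within its group was small, with a median SD of 0.111 against 0.141 for all named genes, so a given difference reaches a low p more easily here than for an average gene. Since whole conceptuses were measured, fewer cells of a type and less RNA per cell cannot be told apart. Some markers also passed limma's test between lengths, as did 9.50% of all named genes. Of 9 trophectoderm markers 1 was higher (TFAP2A) and 1 lower (ASCL2), and of 8 hypoblast markers 1 was higher (APOA1) and 1 lower (PDGFRA). Lower too were 1 of 3 epiblast markers (DNMT3B) and 1 of 8 blood and immune markers (CD8A). The mean level of the epiblast list lay between 5.56 and 5.99 in long and between 5.94 and 6.44 in short conceptuses, and that of the trophectoderm list between 9.98 and 10.10 and between 9.98 and 10.14. Their part in the chaperone results was not tested.

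Averaged over its genes and set against the mean of each gene over all 14 arrays, the mitochondrial list stood at -0.17, -0.17, -0.04, -0.11 and -0.07 in long and at 0.05, 0.02, 0.10, 0.16 and 0.16 in short conceptuses. The cytosolic HSP, J protein and TRiC lists likewise did not overlap between lengths. The ER luminal list did overlap, at -0.04, 0.02, 0.03, 0.11 and 0.08 in long and 0.07, 0.01, -0.11, -0.07 and -0.25 in short conceptuses, and the low short values came from replicates 3, 4 and 5. The ER list minus the mitochondrial list lay between 0.07 and 0.22 in long, between -0.41 and 0.02 in short and between -0.06 and 0.10 in Grade 3 conceptuses. Within the prefixes that hold both lengths this contrast differed by 0.17 and 0.29 between long and short, whereas the ER list alone differed by -0.01 and 0.12.

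**Figure D3:**
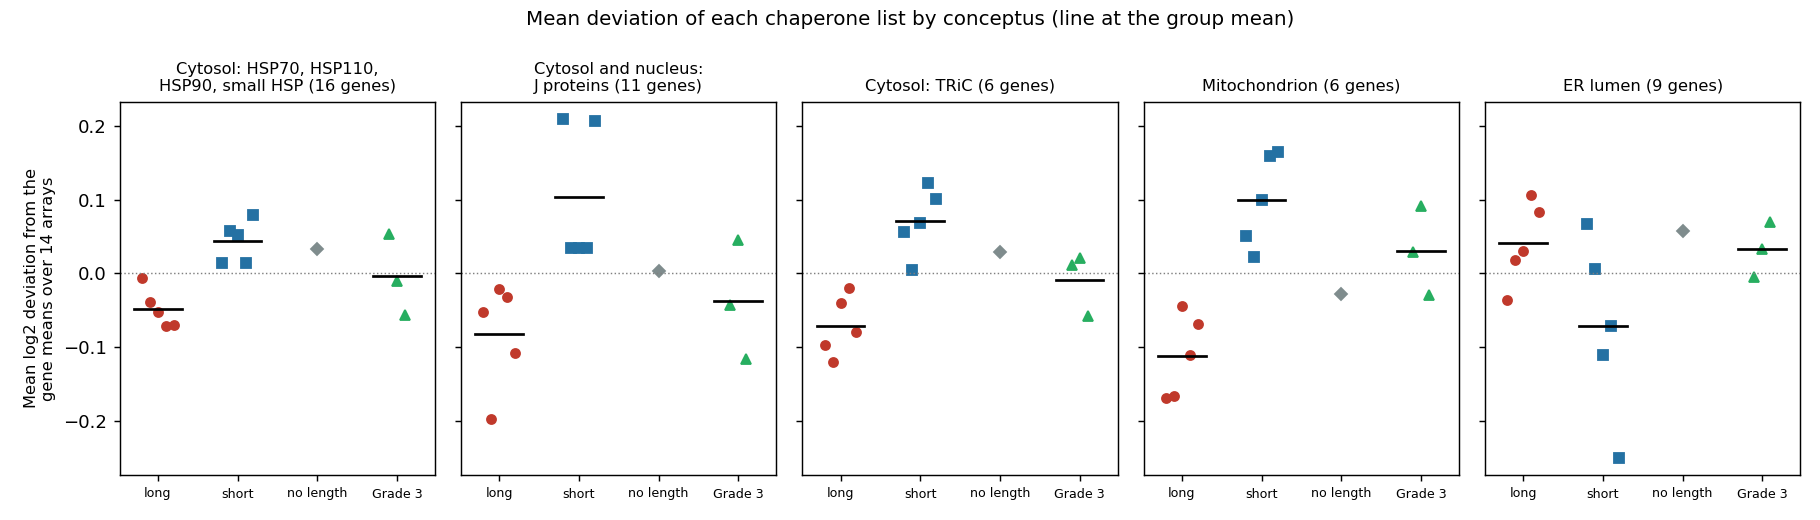
Mean log2 deviation of each chaperone list from the gene means over 14 arrays (vertical axis), 1 point per conceptus, with a line at the group mean. Long conceptuses lie below all short ones in the 4 cytosolic and mitochondrial panels, while for the ER lumen the ranges of -0.04 to 0.11 (long) and -0.25 to 0.07 (short) overlap.

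The heat-inducible HSP70 gene HSPA1A showed the largest differences between single conceptuses of any member. Of its 6 probe sets, 3 had a within-group SD of 0.71, 1.07 and 1.15, above 99.27%, 99.81% and 99.87% of all probe sets. The widest but one read 8.53, 9.64, 8.61, 7.76 and 7.94 in long, 9.20, 8.11, 8.05, 7.66 and 11.36 in short, 7.84 in the conceptus without a length and 7.65, 8.17 and 8.08 in Grade 3 conceptuses. Short replicate 5 was highest in all 3 of these probe sets, at 11.98, 11.36 and 10.73, and long replicate 2 and short replicate 1 came next. Their values overlapped between the lengths and between the grades, and the difference between lengths for the probe set just given was -0.38 with a 95% interval of -1.75 to 0.98.

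The other 3 HSPA1A probe sets varied far less. The brightest read between 10.78 and 11.05 over all 14 conceptuses, with long values of 10.81, 10.78, 10.80, 10.88 and 10.88, short values of 10.91, 10.997, 11.02, 10.90 and 11.05, and a difference of -0.14 ± 0.06 (adjusted p = 0.158). HSPA1A has near-identical relatives, and 2 of the 6 probe sets carry a gene number that is not in the RefSeq table used here, so which transcripts each one reads is uncertain.

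DNAJB1, the J protein partner of HSPA1A in the heat shock response, was also highest in short replicate 5. Its brighter probe set read 10.03, 10.19, 10.39, 10.09 and 10.05 in long, 10.74, 10.41, 10.54, 10.29 and 10.998 in short and 10.22, 10.77 and 10.50 in Grade 3 conceptuses, and its second one gave 11.04 in short replicate 5 and at most 10.26 elsewhere. HSPH1, which is also heat-inducible, was highest in short replicate 1 (12.77) and not in replicate 5 (12.55). The 3' to 5' difference of the actin control probe sets, a measure of RNA quality, lay between 1.29 and 1.84 over all arrays, and its 3 highest values were those of long replicate 2 (1.84), short replicate 1 (1.75) and short replicate 5 (1.65), the same 3 conceptuses that read highest in the variable HSPA1A probe sets. That of GAPDH lay between -0.08 and 0.11, with these 3 at -0.02, 0.04 and 0.02. Its part in the HSPA1A and DNAJB1 values was not tested.

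**Figure D4:**
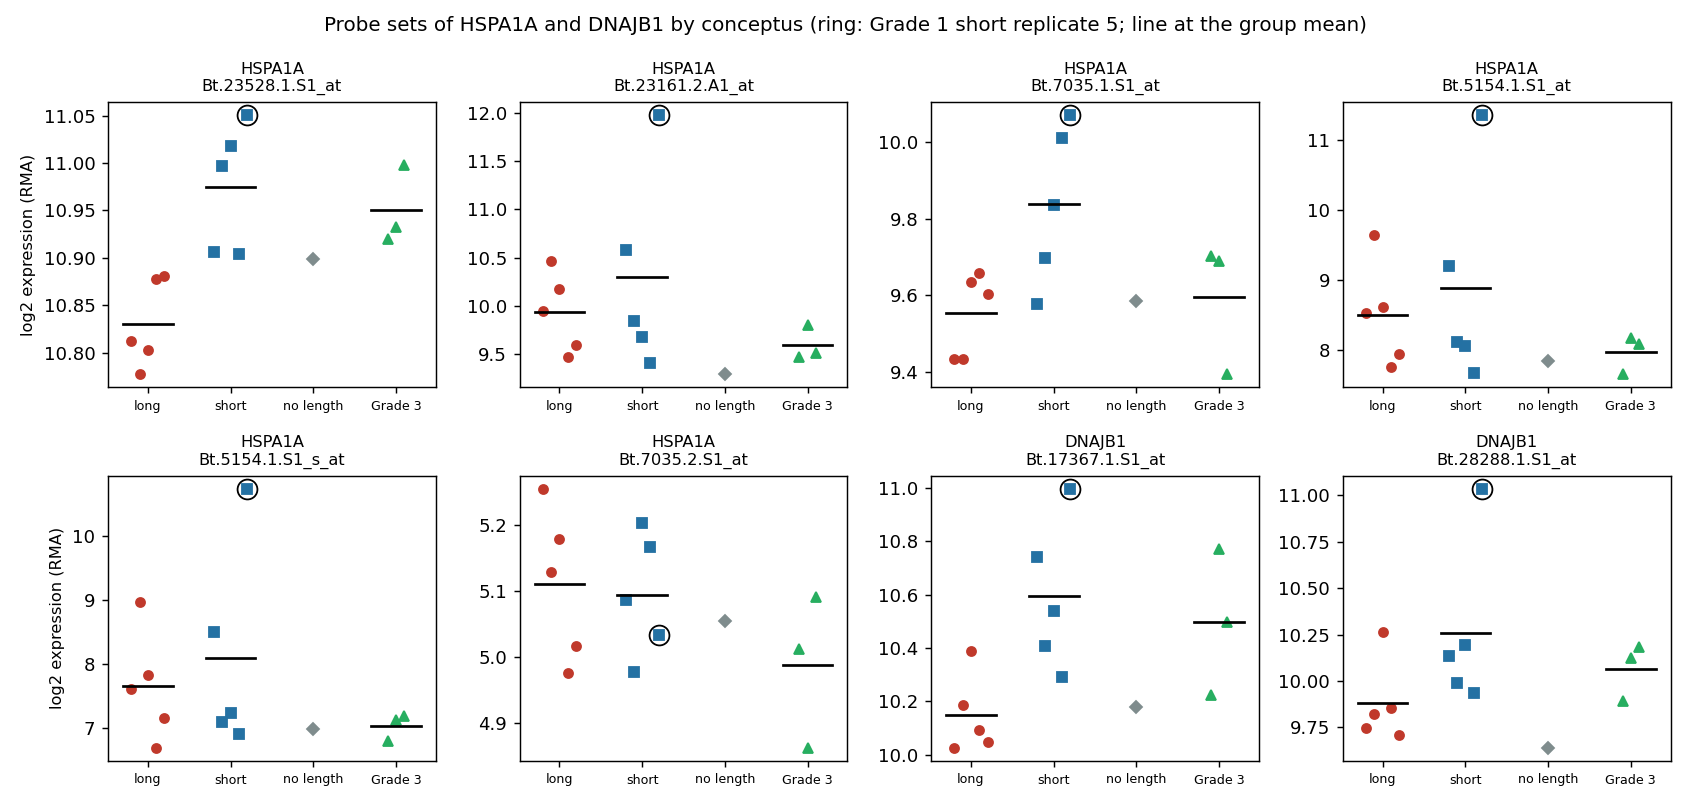
Log2 expression of the 6 HSPA1A and 2 DNAJB1 probe sets by conceptus, with a line at the group mean and a ring around Grade 1 short replicate 5; the vertical axes differ between panels. The ringed conceptus is highest in every panel but the dimmest HSPA1A probe set, and reaches 11.98, 11.36 and 10.73 in the 3 variable HSPA1A probe sets.

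The partners of these chaperones, which the name rule did not select, were counted from lists of pathway genes. Between lengths 58.8% of all named genes lay below 0 and 9.50% passed. Of 20 co-chaperones and heat shock factors 15 had a difference below 0 (75.0%, median -0.10) and 1 passed. FKBP4, the HSP90-bound immunophilin FKBP52, read 10.31, 10.21, 10.42, 10.35 and 10.33 in long and 10.72, 10.55, 10.45, 10.69 and 10.80 in short conceptuses, a difference of -0.32 ± 0.08 (adjusted p = 0.0331). The heat shock factor HSF1 differed by -0.10 (adjusted p = 0.535) and HSF2 by -0.29 (adjusted p = 0.0561). All 6 subunits of prefoldin, which hands actin and tubulin to TRiC, had a difference below 0 (median -0.14). Of these PFDN6, at -0.35 ± 0.07 (adjusted p = 0.0226), and PFDN4, at -0.27 ± 0.07 (adjusted p = 0.0462), passed; PFDN4 was dim, with a mean of 3.56.

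The partners of the mitochondrial and ER chaperones were counted in the same way. All 10 genes of mitochondrial import and proteolysis had a difference below 0 (median -0.21), against 58.8% of all named genes. Of the 10, 1 passed, against 9.50% of all named genes: CLPP, the matrix protease subunit, at -0.35 ± 0.07 (adjusted p = 0.0220). Of 21 further genes of ER folding and the unfolded protein response 15 had a difference above 0 (median 0.05), and 0 passed limma's test. Of these 21, 3 had an unadjusted p under 0.05, beside 28.9% of all named genes: SEL1L at 0.26, ATF4 at -0.16 and DDIT3 at -0.55. The calnexin cycle genes CALR and CANX differed by 0.14 and 0.06.

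The comparison of grades asked whether conceptuses from poorer embryos differ on Day 15 from those of good embryos. None of the 57 chaperone genes (0 of 57) passed limma's test when 3 Grade 3 were set against 11 Grade 1 conceptuses (of all genes 0.00% passed). At an unadjusted p under 0.05 there was 1 gene of 57 (1.75%), against 4.05% of all named genes, and the smallest adjusted p of a member probe set was 0.872. For 0 of 57 genes did the grades not overlap, against 0.437% of all named genes. The 95% interval of a member, which is not adjusted for the number of probe sets tested, reached 0.21 to each side at the median. Larger differences did not pass either: that of DNAJC22, 0.31, had an adjusted p of 0.981 in limma. Changes under about 0.21, and larger ones too, could thus have been missed with this number of arrays. The 3 Grade 3 conceptuses carried 2 title prefixes, and no Grade 1 conceptus carried either of them. Differences between grades and between title prefixes can therefore not be told apart.

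The hubs of each compartment were close between grades. HSPA5 read 13.48, 13.47 and 13.49 in Grade 3 conceptuses, and its lowest, median and highest Grade 1 values were 13.36, 13.45 and 13.60. HSPD1 read 13.83, 13.82 and 13.72, and Grade 1 values ran from 13.72 through a median of 13.78 to 13.84. HSP90AB1 read 13.36, 13.41 and 13.30, inside the Grade 1 range of 13.18 to 13.59 with its median of 13.34. The 95% intervals of these differences were -0.13 to 0.13, -0.09 to 0.13 and -0.17 to 0.17.

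The gene with the smallest p was DNAJC22, a J protein with several membrane spans. It read 5.51, 5.56 and 5.23 in Grade 3 conceptuses against a lowest, median and highest Grade 1 value of 4.61, 5.12 and 5.68, a difference of 0.31 ± 0.14 (unadjusted p = 0.0469, adjusted p = 0.981). DNAJA1, a farnesylated J protein of HSC70, read 8.44, 8.29 and 8.47 against 7.97, 8.70 and 9.15, a difference of -0.32 ± 0.17 (adjusted p = 0.999). HSPB1 read 12.75, 12.06 and 12.50 against 11.97, 12.20 and 12.56, and its difference of 0.21 rested on replicates 1 and 3. A dimmer probe set of PDIA4 read 8.46, 8.16 and 8.80 against 7.81, 8.15 and 8.29 (difference 0.34 ± 0.11, unadjusted p = 0.00767, adjusted p = 0.872), whereas the brightest PDIA4 probe set differed by 0.09.

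No compartment stood out between grades. The median difference was 0.06 for the ER lumen, 0.03 for mitochondria, -0.02 for TRiC, -0.02 for the cytosolic heat shock proteins and 0.00 for the cytosolic and nuclear J proteins, beside 0.00 for all named genes.

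**Figure D5:**
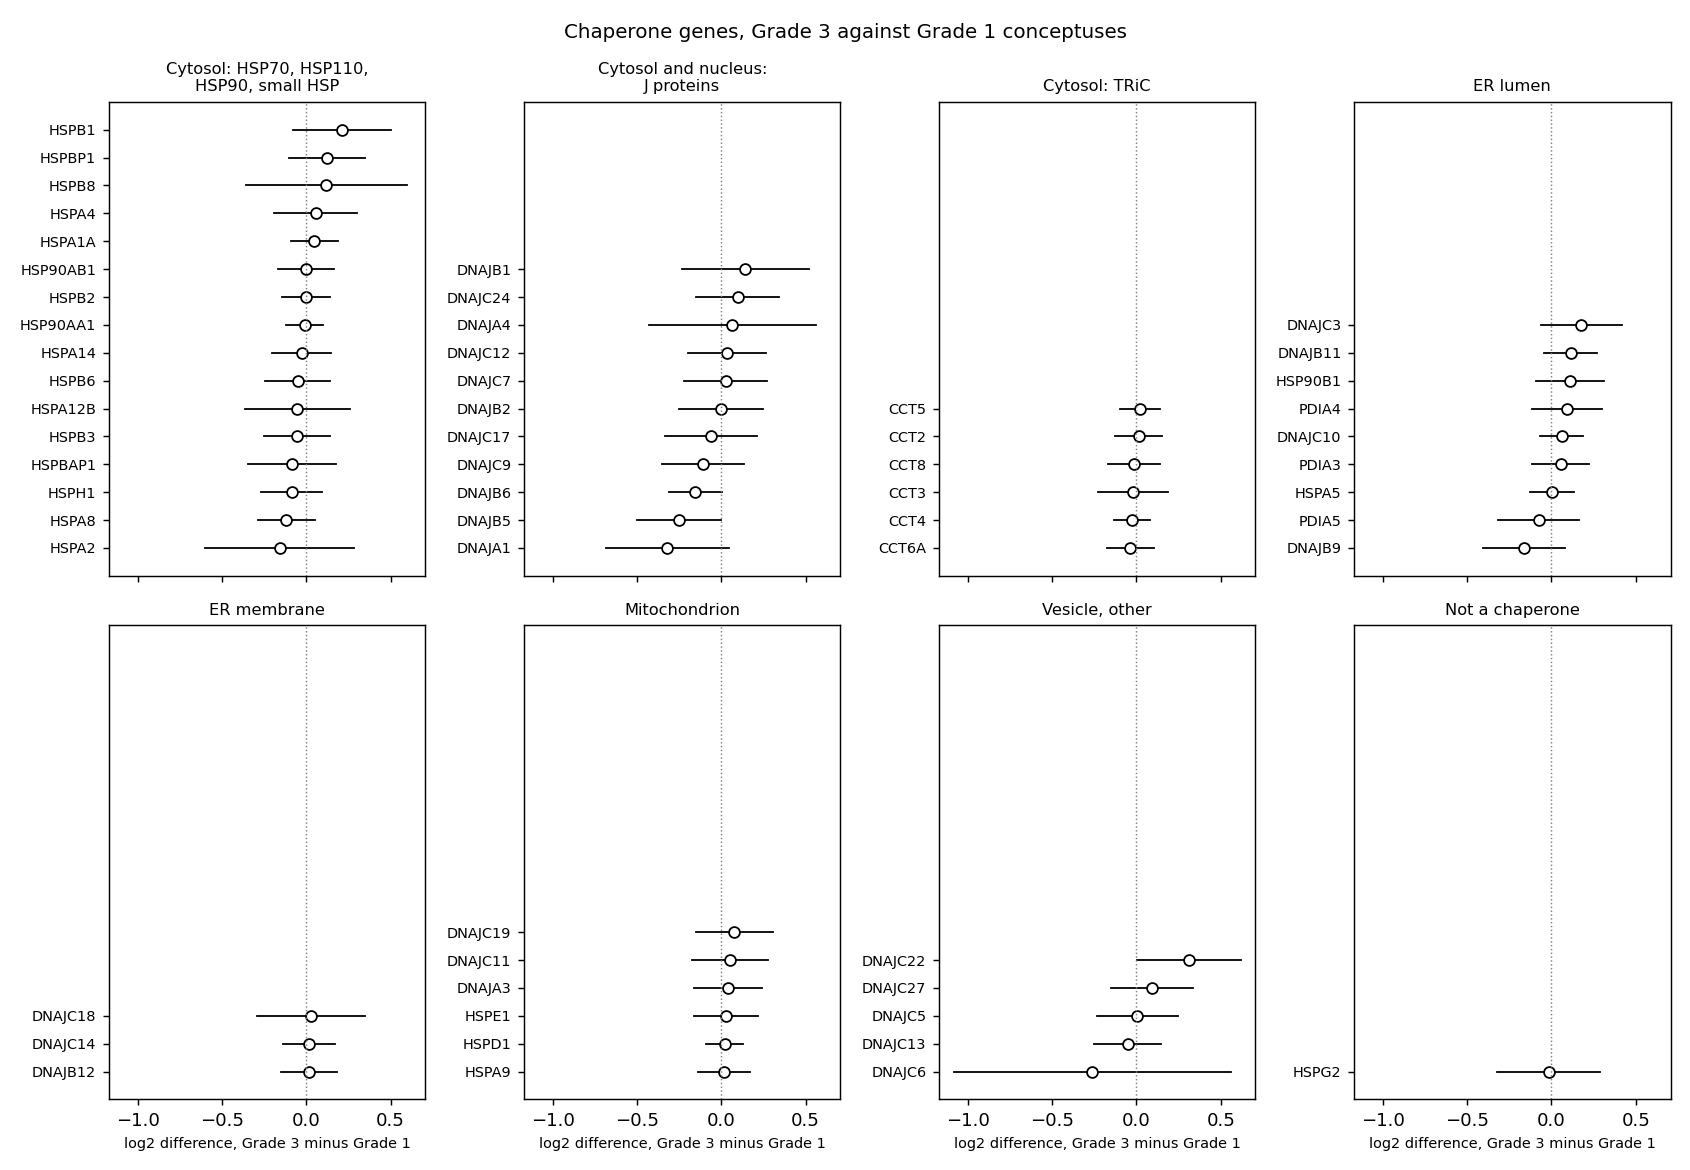
Difference in log2 expression between 3 Grade 3 and 11 Grade 1 conceptuses (horizontal axis, Grade 3 minus Grade 1) for the 57 chaperone-family genes, grouped by compartment; bars are 95% confidence intervals from limma. No gene passed the test, and the medians of the compartments lie between -0.02 and 0.06.

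Since the Grade 1 conceptuses mix lengths, Grade 3 was also set against each length in 1 fit of all 14 arrays. These comparisons share the Grade 3 conceptuses with each other and the long and short ones with the length comparison, so their values are given side by side only. In both, Grade 3 again shared no title prefix with the other group, so grade and prefix cannot be told apart here either. No member passed limma's test in either: against long 10 of 57 genes had an unadjusted p under 0.05 (17.5%, against 9.63% of all named genes), and against short 8 (14.0%, against 12.4%). Grade 3 and long values did not overlap for 12 genes (21.1%, against 8.77% of all named genes), 11 of them higher in Grade 3 (19.3%, against 5.36%) and 1 lower (1.75%, against 3.41%). Grade 3 and short values did not overlap for 5 genes (8.77%, against 7.39%), 1 higher (1.75%, against 2.45%) and 4 lower (7.02%, against 4.95%).

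The Grade 3 values of genes that separated the lengths lay nearer to the short conceptuses for some and between the lengths for others. HSPBP1 read 8.41, 8.53 and 8.35 in Grade 3, a difference of 0.30 from long (adjusted p = 0.290) and -0.03 from short conceptuses (adjusted p = 0.894). DNAJC24 read 9.40, 9.39 and 9.36, differing by 0.28 from long and by -0.07 from short. HSPA4 read 12.11, 12.26 and 12.04 and differed by 0.24 from long and by -0.12 from short. Its second, dimmer probe set had the other sign against long, at -0.14, and differed by -0.24 from short. In the brightest probe set of each, all 3 Grade 3 values of HSPBP1, DNAJC24 and HSPA4 lay above the 5 long values.

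DNAJC6 read 4.75, 4.38 and 4.99 in Grade 3 conceptuses and 4.19 in the Grade 1 conceptus of no recorded length. It differed by -0.93 ± 0.23 from long (adjusted p = 0.290) and by 0.25 from short conceptuses (adjusted p = 0.728). HSPB8 read 7.91, 7.06 and 7.59 in Grade 3 and 7.77 in the conceptus without a length, values that span both lengths. DNAJC5 read 7.98, 8.07 and 8.08, below all 5 short values and within or just above the long ones, with differences of 0.17 from long and -0.17 from short.

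By compartment, the median difference of Grade 3 from long was 0.15 for mitochondria, 0.09 for J proteins, 0.08 for TRiC, -0.01 for cytosolic heat shock proteins and 0.04 for the ER lumen, beside 0.02 for all named genes. From short conceptuses it was -0.08, -0.14, -0.07, -0.08 and 0.12 in the same order, beside -0.02 for all named genes. All 6 mitochondrial genes lay above 0 against long and below 0 against short conceptuses, as did 5206 and 5098 of all 9155 named genes. The same 6 were all lower in long than in short conceptuses, so these signs are not separate results. DNAJA1 and HSPA8 lay below all short values in Grade 3, with differences from short of -0.48 ± 0.17 (adjusted p = 0.349) and -0.21 ± 0.08 (adjusted p = 0.370), and PDIA3 lay above them, at 0.16 ± 0.07 (adjusted p = 0.470).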

How the data were processed

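Total RNA (250 ng per conceptus, per the labels' protocols) of 14 conceptuses was hybridised to 1 array each. The authors deposited log2 expression values; per the submitters' processing notes these came from RMA, run in Affymetrix's Expression Console. Neither its version nor the set of arrays normalised jointly is given in the sources used here. RMA quantile-normalises the arrays, so a shift common to all genes is removed and differences of dim probe sets are compressed. Of 24128 probe sets, ranging from 2.235 to 14.61 with 0 missing values, 112 controls were left out. Precision is limited by the number of arrays.

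Symbols came from the platform annotation, and 86 of the 88 member probe sets matched RefSeq (ARS-UCD2.0) by Entrez number. No coordinates or sequences were used here. Differences were tested with limma 3.58.1 (lmFit, eBayes; R 4.3.3), two-sided, with Benjamini-Hochberg adjustment over 24016 probe sets and a threshold of 0.05, and the scripts were tested on simulated data. The study's design gives 4 Grade 1 conceptuses for its grade comparison without naming them, so all 11 were used. The main fits had no block and no covariate, and title prefixes served as blocks in other settings only. Other settings were sex as a covariate, prefix blocks, other scalings, a filter on dim probe sets, an intensity trend with a robust prior, the probe set with the smallest p, a threshold of unadjusted p under 0.01 with 1.5-fold, the conceptus with disagreeing labels counted as long, and leaving out conceptuses. Named were all genes that passed, the 3 with the smallest p in each list and comparison, and the main chaperone of each compartment. The members and lists were chosen with earlier results of these data known.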

Additional observations from a re-analysis of the deposited data

Results flagged for a closer look

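Among 98 groups of 5 conceptuses checked over the named chaperone genes, 6 (6.12%) held a value that stood far from the other 4, close to the 1 in 20 that chance gives. Long replicate 2 supplied 3 of them: DNAJA1 at 7.97 (the others 8.58 to 8.76), CCT2 at 12.38 (the others 12.49 to 12.53) and, above the rest, HSPB8 at 8.03 (the others 7.45 to 7.61). DNAJC22 stood apart in both lengths, low in long replicate 5 at 4.61 (the others 5.00 to 5.14) and high in short replicate 5 at 5.68 (the others 5.09 to 5.22). HSPH1 was high in short replicate 1, the conceptus with disagreeing labels, at 12.77 (the others 12.47 to 12.55). Causes were not tested.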

How the results depend on the processing

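No paired analysis was possible because the replicate numbers only name conceptuses in the order of their accessions. The title prefix was used as a block in alternative fits only. In the length comparison 10 member genes passed; 4 passed with the conceptus of disagreeing labels counted as long, 1 with a fixed block for the title prefix, 1 at an unadjusted p under 0.01 with 1.5-fold, 18 with an intensity trend and robust prior, and 0 (16 at an unadjusted p under 0.05; 51 of 24016 probe sets in all) without short replicates 4 and 5. Without long replicates 1 and 2, limma called 0 (19 at an unadjusted p under 0.05; 49 probe sets in all); both of these alternatives were added after seeing the data. Leaving out 1 conceptus gave 3 to 13 genes: 3 to 6 without any 1 long conceptus or without short replicate 4 or 5, and 13, 7 and 8 without short replicates 1, 2 and 3. Of these 10 fits, DNAJC24 lost its call in 3 (highest adjusted p 0.0577), DNAJC5 in 5 (0.0692), DNAJC7 in 6 (0.0844), DNAJC11 in 7 (0.0744), and CCT3, HSPB8 and HSPG2 in 9 each (0.112, 0.101 and 0.108), while DNAJC6, HSPA4 and HSPBP1 lost it in 0. The cause was not tested. The median of the vesicle list (0.09) was -0.041 with the conceptus counted as long and 0.22 without the short pair; that of the J proteins (-0.28) was -0.17 with the fixed block and -0.19 without either pair; that of the cytosolic heat shock proteins (-0.15) was -0.12 after quantile normalisation once more. The ER lumen median stayed above 0 (0.05 to 0.17) and the mitochondrial and TRiC medians below 0 in all settings run. Between grades, the median of all cytosolic members (-0.01) ran from -0.036 to 0.023 without 1 conceptus, and that of the cytosolic heat shock proteins (-0.02) was -0.053 with the probe set of smallest p. The counts between grades, and of Grade 3 against either length, were 0 in all settings. Centring or quantile-normalising the arrays moved the median difference of all genes between lengths from -0.03 to -0.05 or -0.02.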
